A study of Drosophila melanogaster with 3 samples.

Results

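The subject is the binding of tagged Broad at 9 nuclear receptor genes of Drosophila melanogaster that lie outside the early ecdysone response, namely Hnf4, ERR, Hr96, Hr78, Hr51, svp, tll, dsf and kni. They were chosen by name, with no measured value in the rule but with earlier results of these data known. All 9 were found among 13945 protein-coding genes on the 6 main chromosome arms. A region was assigned to a gene when its summit, the point of highest signal, lay in the annotated gene body or within 5 kb of it. Such a stretch is called the gene window here. The fly has 21 nuclear receptor genes in the lists used here, and the remaining 12 were set beside these 9.

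Broad is a zinc finger transcription factor induced by the moulting hormone ecdysone. Whole wandering larvae of the third instar, males and females pooled, carried a stably expressed transgene in which GFP was fused to the C-terminus of the form named br-RE, and chromatin was recovered with an antibody to GFP. The 3 biological replicates (2, 3 and 4 in the labels) made up a single group of this line, of unstated age, so no condition was compared with another and no difference was tested. The larvae were whole, so strong binding in few cells and weak binding in many cells cannot be told apart. Chromatin was sheared by sonication to 200 to 800 bp.

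Nuclear receptors are transcription factors with a zinc finger DNA-binding domain and, in most members, a ligand-binding domain that lets lipids, hormones or cofactors set their activity. In the fly some of them tune metabolism: Hnf4 drives fatty acid oxidation, ERR drives glycolytic genes in growing larvae, and Hr96 acts in lipid uptake and the response to toxic compounds. Others act in development. The gap gene tll and its relative dsf act in head and nervous system, kni is a gap gene that lacks a ligand-binding domain, svp specifies photoreceptors and neuron identity in order, Hr51 acts in mushroom body neurons, and Hr78 is needed for larval growth and moulting.

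The authors' optimal list, kept by an irreproducible discovery rate threshold, held 2533 regions with signal from 88.3 to 6030. All of them were the strongest regions of a list of 27389 regions called on the pooled replicates. In the lists of single replicates, 30000 regions long each, the first 2533 by signal are called top regions here. Signal is the strength that the authors' peak caller gave a region, and ranks count from the strongest. Ranks in the 3 replicate lists are read on lists of equal length. Read depth is unknown, and replicates differed in scale, with the last top region at a signal of 44.2, 32.4 and 23.0 in replicates 2, 3 and 4.

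Optimal summits lay in the windows of 4 of the 9 genes, Hr96 with 2 and Hnf4, ERR and dsf with 1 each, and Hr78, Hr51, svp, tll and kni had none. The share was 44.4% (exact 95% binomial interval 13.7 to 78.8, counting error only), against 31.9% of all protein-coding genes. Hr96, Hnf4 and ERR had an optimal summit within 1000 bp of one of their transcription start sites (TSSs), which is 33.3% of the genes (interval 7.49 to 70.1) against 13.5% of all genes. Both shares have intervals that include the share of all genes. The 9 genes were named and not drawn at random, so the intervals give no test of a difference. The windows of the 9 genes were somewhat longer than usual, with a median of 14117 bp against 12166 bp, and the genes had a median of 2 TSSs against 1. Of the 5 optimal summits, 2 had a TSS of the listed gene as the nearest of any gene, the summit in Hnf4 and one in an intron of Hr96. When only such summits counted, 2 of the 9 genes had an optimal summit and 1, Hnf4, had it at its promoter. When an optimal region counted only if both of the remaining replicates held a top region within 200 bp, the number of genes was 3 without replicate 2, 3 without replicate 3 and 2 without replicate 4.

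**Figure D1:**
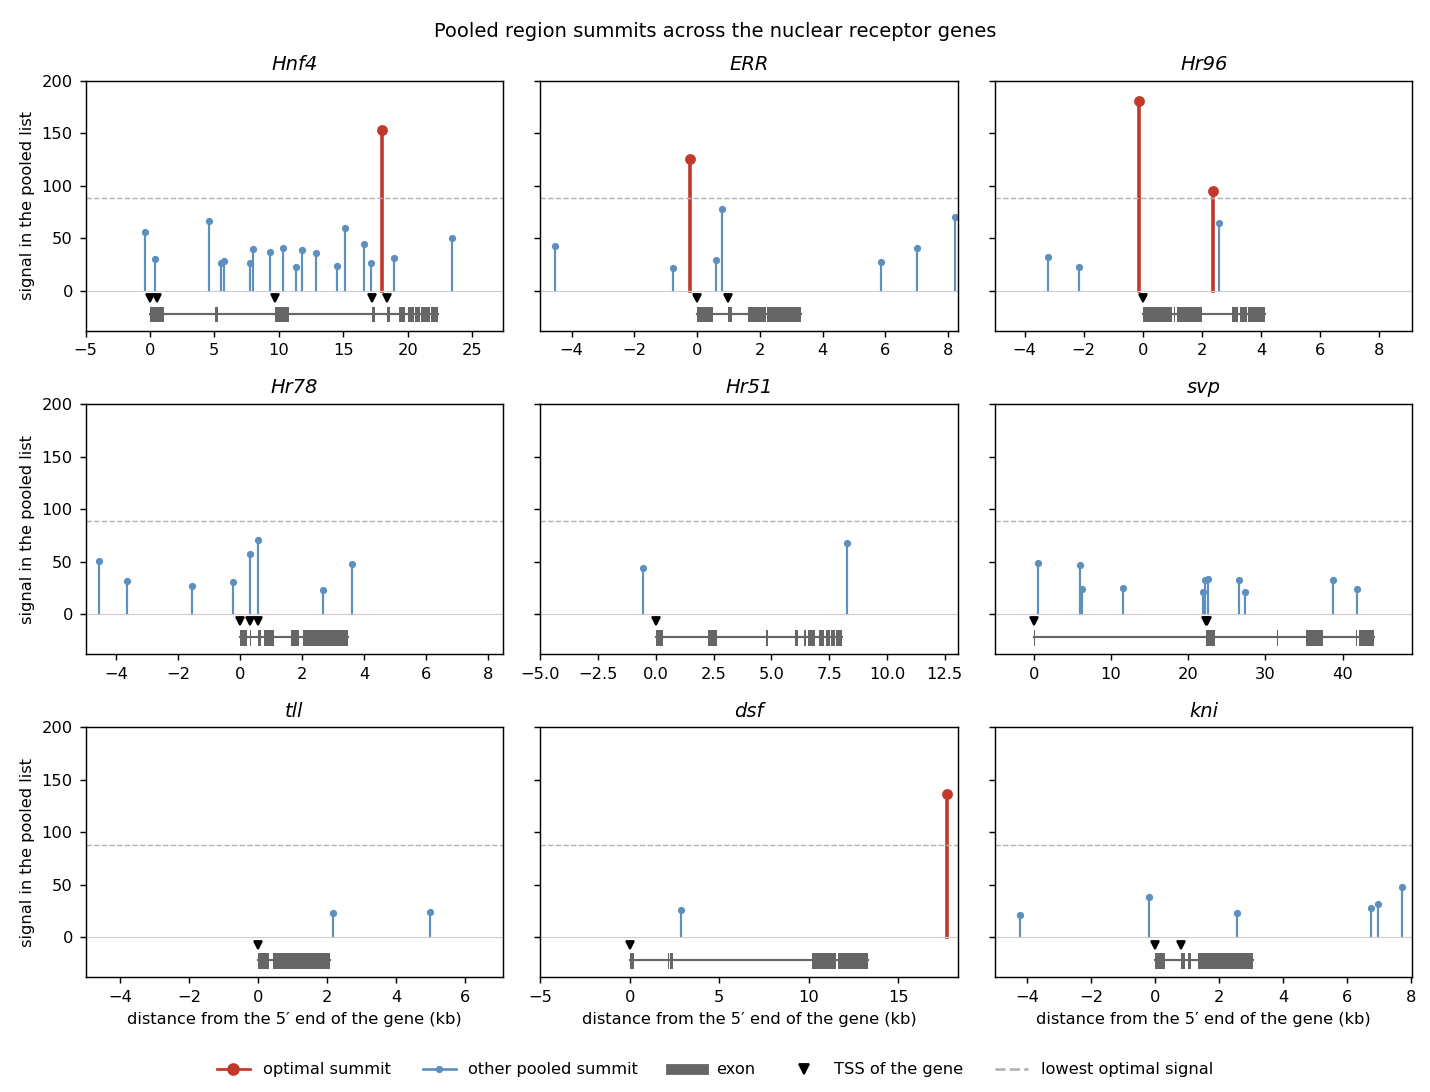
Signal of every pooled region (vertical axis, the authors' signal) by the distance of its summit from the 5′ end of the gene in kb (horizontal axis), 1 panel per gene, with exons as boxes and TSSs as triangles. The red stems are the 5 optimal summits, and the dashed line is the lowest optimal signal, 88.3; Hr78, Hr51, svp, tll and kni have no stem above it.

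The windows that reach 100 bp to either side of the 5 optimal summits are shown because they hold the sites on which the results below rest. They are the RefSeq copy of the dm6 assembly, read 5′ to 3′ on the plus strand. Capitals mark any of 10 words sought on both strands, which are listed after the sequences. Hr96 lies on the plus strand, as does dsf, whereas Hnf4 and ERR lie on the minus strand.
Hr96 promoter, chr3R:25024990-25025190: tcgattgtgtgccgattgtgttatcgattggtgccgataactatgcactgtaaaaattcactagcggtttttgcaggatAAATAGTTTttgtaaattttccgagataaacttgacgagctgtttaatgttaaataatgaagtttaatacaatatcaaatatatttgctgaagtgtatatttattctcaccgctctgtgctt
Hnf4 internal promoter, chr2L:8691479-8691679: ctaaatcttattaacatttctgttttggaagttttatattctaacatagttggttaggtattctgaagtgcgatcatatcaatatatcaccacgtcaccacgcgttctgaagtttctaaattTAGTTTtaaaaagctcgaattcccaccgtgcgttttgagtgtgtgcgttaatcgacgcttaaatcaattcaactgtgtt
ERR promoter, chr3L:8186784-8186984: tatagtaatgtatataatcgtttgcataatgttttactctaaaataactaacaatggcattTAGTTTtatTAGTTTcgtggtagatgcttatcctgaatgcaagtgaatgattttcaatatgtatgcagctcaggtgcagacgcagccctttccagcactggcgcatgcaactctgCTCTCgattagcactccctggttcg
Hr96 intron, chr3R:25027503-25027703: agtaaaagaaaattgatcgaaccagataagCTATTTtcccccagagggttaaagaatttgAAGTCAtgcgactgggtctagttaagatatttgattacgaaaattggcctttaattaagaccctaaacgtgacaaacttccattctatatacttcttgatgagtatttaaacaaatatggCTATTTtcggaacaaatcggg
dsf downstream flank, chr2L:5943565-5943765: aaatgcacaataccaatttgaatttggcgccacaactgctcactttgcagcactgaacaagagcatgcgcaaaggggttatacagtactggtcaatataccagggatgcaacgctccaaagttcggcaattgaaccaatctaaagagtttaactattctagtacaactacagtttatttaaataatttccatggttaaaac

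Words bound by nuclear receptors themselves were rare among all optimal windows, and the counts in the 5 shown are too small to set apart from them. The receptor core word AGGTCA was in none of the 5 and in 3.19% of all 2510 nuclear optimal windows of the same 201 bp. The extended word TCAAGGTCA, which contains AGGTCA, was in none of the 5 and in 0.0797% of all windows, and a direct repeat of AGGTCA with 1 base between its copies was in none of the 2510. The word AAGTCA, of the type bound by Tailless, was in the intronic Hr96 window and in 9.32% of all windows. Absence of these letters from a window says nothing of the receptors.

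At least 1 of 3 words reported for the Broad isoforms Z2, Z3 and Z4 was in 4 of the 5 windows and in 39.5% of all 2510. No word was sought for any other Broad isoform. AAACTA, the Z3 word, was in the Hr96 promoter, Hnf4 and ERR windows, 2 times in the last, and in 20.8% of all windows. CTATTT, the Z2 word, was in both Hr96 windows and in 20.4% of all windows. In the Hr96 promoter window the Z2 and Z3 words lay on the minus strand and overlapped, at 21 to 16 bp and 18 to 13 bp before the summit. GAGAG was in the ERR window and in 26.5% of all windows. GTAAACA, the Z4 word and also a forkhead word (6.37% of all windows), TATCGATA (3.31%) and GGTCACAC (1.51%) were in none of the 5. G and C made up 32.8% to 39.3% of the 5 windows, against a median of 35.8% over all. A match is a description of letters, and which zinc fingers br-RE carries was not established here.

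Among the receptors of lipid and sugar metabolism, Hr96 (FBgn0015240, 3R, 25025235 to 25029351) had the strongest of the 5 optimal regions, at 25024888 to 25025291, with signal 181 and rank 622 in the optimal list. Its signal was 73.9 in replicate 2, 51.8 in replicate 3 and 49.3 in replicate 4, at ranks 870, 753 and 705. All 3 replicates thus held it among their top regions, and the summits lay within 33 bp of the optimal one. The summit was 145 bp upstream of the single TSS of Hr96 and 73 bp from that of EMC6, which encodes a subunit of a membrane protein insertion complex of the endoplasmic reticulum. Both TSSs face away from each other at a gap of 218 bp, so the region cannot be assigned to one of the genes.

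The second Hr96 site lay within the gene and was less even between replicates. It was an intronic region at 25027401 to 25027804, 2368 bp downstream of the TSS, with signal 95.5 and rank 2194. Replicate 3 held it at rank 1103 (signal 44.2) and replicate 2 at rank 3922 (signal 35.3), and replicate 4 listed no region within 200 bp. A pooled region of rank 4435, with its summit at 25027802, overlapped it. Replicate 3 listed a separate region at that same summit, at rank 5035 with signal 24.0, whereas the replicate 2 region lay between both pooled summits. Together the optimal summits made 1.42 per 10 kb of the Hr96 window, above 93.9% of all protein-coding genes.

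Hnf4 (FBgn0004914, 2L, 8687226 to 8709611) had its optimal region at an internal start site. The region at 8691377 to 8691780 had signal 153 and rank 891, and its summit lay 370 bp upstream of the start of the transcript Hnf4-RB, the most 3′ of 5 annotated TSSs. It was also nearest to that TSS among the TSSs of all genes. Its signal was 83.8, 43.2 and 37.9 in replicates 2, 3 and 4, at ranks 654, 1177 and 1113, which are top regions in all 3. The optimal summits at Hnf4 and at the Hr96 promoter were the only 2 of the 5 with that support.

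Weaker regions were spread over the whole Hnf4 gene. The pooled list held 19 summits in its window, 5.87 per 10 kb, above 92.6% of all genes, and 14 of them had a TSS of Hnf4 as the nearest. The most upstream start, of Hnf4-RE, had a pooled region 365 bp upstream of it, inside the neighbouring gene raw, at rank 5538. It was a top region in replicate 3 (rank 1701) and was not listed within 200 bp in replicates 2 and 4. Replicate 2 had a separate region 188 bp downstream of that start, at rank 3357 with signal 38.4. The next strongest pooled region, of rank 4208, was intronic but lay 520 bp from the TSS of CatB. A region at rank 2374 of replicate 3 lay at the start of the neighbouring gene Trs23. The replicates listed 28, 22 and 8 regions in the window, so the number of weak regions was lowest in replicate 4.

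ERR (FBgn0035849, 3L, 8183361 to 8186671) had an optimal region shared with an autophagy gene. The region at 8186682 to 8187085 had signal 126 and rank 1294, with its summit 213 bp upstream of the start of ERR-RA and 27 bp from that of Atg18a, which runs the opposite way from a start 186 bp away. Its rank was 1302 in replicate 2 and 531 in replicate 4 but 6087 in replicate 3, with signals of 60.8, 58.0 and 21.9. Replicate 3 therefore did not hold it as a top region. Of 1460 optimal summits within 1000 bp of a protein-coding TSS, 560 (38.4%) lay at such opposed starts at most 1000 bp apart.

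A second ERR region did not reach the optimal list, which ended at rank 2533 and signal 88.3. It lay 206 bp upstream of the downstream start, that of ERR-RB, with signal 77.9 and rank 3201 in the pooled list. It was a top region in replicate 2 (rank 2439), had rank 4745 in replicate 4 and was not listed within 200 bp in replicate 3. The ERR window was dense in pooled regions, with 8 summits or 6.01 per 10 kb, above 93.2% of all genes. Only 2 of the 8 had a TSS of ERR as the nearest, and another, of rank 3741, lay 27 bp from the TSS of Nmt.

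**Figure D2:**
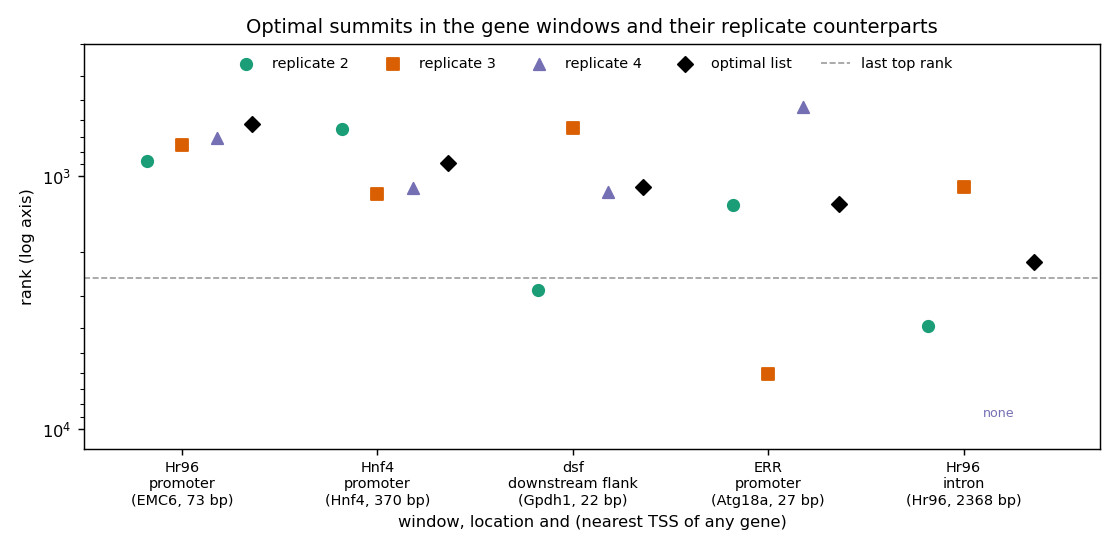
Rank (log axis, strongest at the top) of the 5 optimal summits in the optimal list (diamonds) and of the strongest region within 200 bp in replicates 2, 3 and 4, with the nearest TSS of any gene under each. The Hr96 promoter and Hnf4 sites lie above the last top rank, 2533, in all 3 replicates, and the other 3 sites fall below it or are missing in at least 1.

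Hr78 (FBgn0015239, 3L, 21494019 to 21497494) had promoter regions of moderate strength that varied between replicates. The strongest pooled region had its summit 13 bp from the start of Hr78-RF, with signal 70.6 and rank 3769, and the next lay 5 bp from the start of Hr78-RE at rank 5361. The strongest regions within 200 bp of the first had ranks 4907 and 3799 in replicates 2 and 4, and replicate 3 had none. Near the second, replicate 3 had rank 2083, a top region, and replicate 4 had none. Replicate 2 had the same region of rank 4907 in reach and a nearer one of rank 13190. The antisense gene asRNA:CR43933 covers both summits. The window held 5.94 pooled summits per 10 kb, above 92.9% of all genes.

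In the dsf window the optimal region lay at the starts of neighbouring genes. The dsf gene (FBgn0015381, 2L, 5925937 to 5939261) had no region of the optimal list in its body or at its TSS. The optimal region at 5943463 to 5943866, of signal 137 and rank 1107, lay beyond its 3′ end, 17728 bp from its TSS and 22 bp from that of Gpdh1. Gpdh1 and Sfp26Ad have opposed starts 339 bp apart, so here too the region cannot be assigned to one gene. Gpdh1 encodes glycerol-3-phosphate dehydrogenase, an enzyme that links glycolysis with lipid synthesis. The region had ranks 2832, 647 and 1159 in replicates 2, 3 and 4, with signals of 41.8, 54.9 and 36.9. Within 5 kb of the body dsf otherwise had 1 pooled summit, an intronic one of rank 19275, and its pooled density of 0.857 per 10 kb was the lowest of the 9 genes.

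The remaining 4 genes, tll, kni, svp and Hr51, act in embryonic patterning or neuron identity and had no optimal summit. The window of tll (FBgn0003720, 3R, 30852315 to 30854400) held 2 pooled summits, both downstream of the gene, at ranks 20919 and 22830 with signals of 24.4 and 23.1. Their −log10 q-values were 0.101 and 0.0672. Replicate 2 listed no region in this window, and the best ranks in replicates 3 and 4 were 13382 and 8095.

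The window of kni (FBgn0001320, 3L, 20692330 to 20695378) held 6 pooled summits, of which the strongest had rank 7168 and lay 6886 bp from the TSS, beyond the 3′ end. Its promoter region, 190 bp upstream of the start of kni-RA, had rank 10175 in the pooled list and signal 38.7. Within 200 bp of it replicates 2 and 3 had ranks 5076 and 12045, and replicate 4 had none. No gene other than kni was annotated within its window, and its pooled density was 4.60 per 10 kb, above 83.0% of all genes. Thus the kni window had many regions but none near the optimal range.

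The long gene svp (FBgn0003651, 3R, 12258737 to 12302785) held 11 pooled summits over a window of 54.0 kb, 2.04 per 10 kb. The strongest had rank 7108 and lay 548 bp downstream of the most upstream start, which svp shares with the gene CG44037, so it cannot be assigned to one of them. Its ranks in replicates 2, 3 and 4 were 6420, 23615 and 18895. In replicate 2 the strongest region of the window was another one, 141 bp upstream of the internal start of svp-RA, at rank 3184 and signal 39.5. Neither replicate 3 nor replicate 4 listed a region within 200 bp of the pooled summit at that place, of rank 13274.

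Hr51 (FBgn0034012, 2R, 15331325 to 15339384) held 2 pooled summits. The stronger, of rank 4052 and signal 67.9, lay just beyond the 3′ end of the gene, 866 bp from the TSS of the next gene, unc-5. Its ranks were 6033, 7929 and 2024 in replicates 2, 3 and 4, so that it was a top region in replicate 4 alone. The weaker one, at rank 8306, lay 573 bp upstream of the Hr51 TSS and within lncRNA:CR44371, and of the replicates only replicate 2 listed it, at rank 6759.

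**Figure D3:**
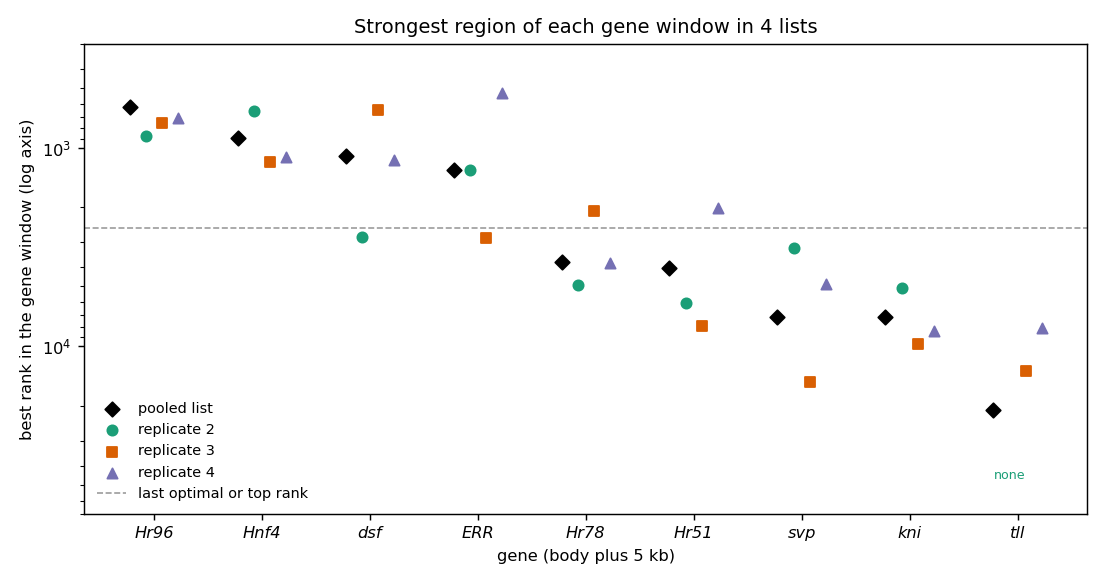
Best rank (log axis, strongest at the top) of any region in each gene window in the pooled list (diamonds) and in replicates 2, 3 and 4. Hr96 and Hnf4 lie above rank 2533, the dashed line, in all 4 lists, whereas svp, kni and tll lie below it in all 4, and tll has no region in replicate 2.

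Top regions lay in the Hnf4 and Hr96 windows in all 3 replicates and in those of ERR, dsf, Hr78 and Hr51 in 1 or 2 of them. Replicate 2 had 4 top regions, in the windows of Hnf4, ERR and Hr96. Replicate 3 had 7, in those of Hnf4, Hr96, Hr78 and dsf. Replicate 4 had 5, in those of Hnf4, ERR, Hr96, Hr51 and dsf. The mean was 5.33 ± 1.53 (SD, n = 3). The share of the 9 genes with a top region was 33.3%, 44.4% and 55.6% in replicates 2, 3 and 4, against 27.8%, 35.5% and 30.5% of all protein-coding genes. With a top region at the promoter the share was 33.3% in each, against 11.3%, 16.0% and 12.7% of all genes. Hnf4 and Hr96 made up 2 of the 3 promoters in every replicate, and the other was ERR in replicates 2 and 4 and Hr78 in replicate 3.

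At the level of all pooled regions, background strength included, every one of the 9 windows held at least 1 summit, against 84.7% of all genes. The lowest number among the 9 was 2. A pooled summit lay at the promoter of 7 of the 9, all but tll and dsf, against 54.8% of all genes. The 63 pooled summits fell 22 at promoters, 19 in introns, 3 in exons, 12 in downstream flanks and 7 in upstream flanks. For 34 of them (54.0%) the nearest TSS was that of the listed gene. Pooled density had a median of 3.54 per 10 kb over the 9 genes against 2.35 over all genes, and 5 of the 9 were above that. ERR, Hr78, Hnf4, kni and Hr96 stood above it, and svp, tll, Hr51 and dsf below.

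The other 12 nuclear receptor genes, most of them tied to the ecdysone response, had more optimal regions per gene. Of these 10 had an optimal summit in the window (31.9% of all genes) and 5 at the promoter (13.5% of all genes). These counts do not require the nearest TSS to be that of the listed gene. The promoter summits of EcR and Eip75B met that rule. Those of Hr3, Hr39 and ftz-f1, and the only summit of Hr83, lay nearer to a TSS of another gene. The best ranks were at Eip75B (44), Eip78C (76) and Hr4 (118), all in introns, against 622 among the 9. Eip78C and Hr4 had no optimal summit at the promoter. Their windows were also longer, with a median of 42240.5 bp, and they held a median of 1.5 optimal summits against 0. Per 10 kb the medians were 0.42 and 0 optimal summits and 3.49 and 3.54 pooled summits. The difference was not tested. The closest relative of kni, knrl, had 1 optimal summit, at rank 506 in an intron 19847 bp from its TSS, with ranks 328, 1975 and 883 in replicates 2, 3 and 4.

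**Figure D4:**
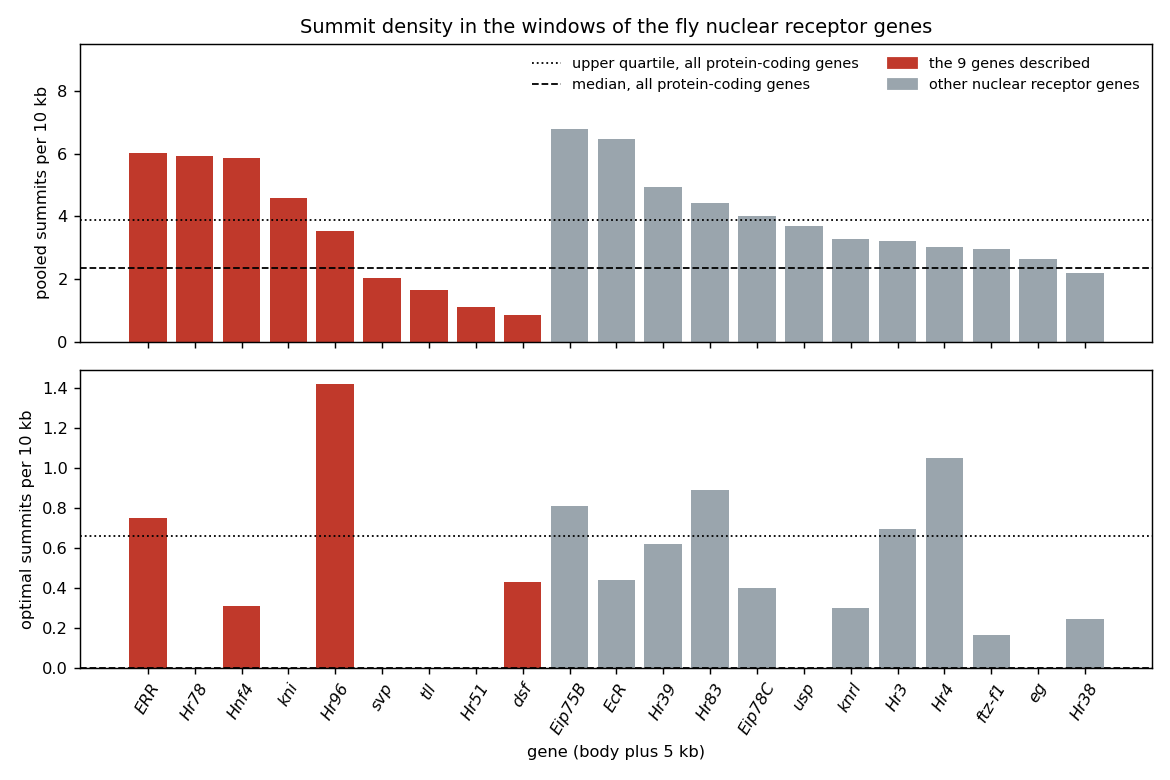
Pooled (upper) and optimal (lower) summits per 10 kb of window for the 9 genes (red) and the other 12 nuclear receptor genes (grey), with the median (dashed, 2.35 and 0) and upper quartile (dotted, 3.90 and 0.659) of all protein-coding genes. ERR, Hr78 and Hnf4 stand near 6 pooled summits per 10 kb, and 5 of the 9 red bars of the lower panel are at 0.

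Genes that work with these receptors were described by the same count. Of 12 glycolysis genes, the pathway that ERR drives in larvae, 7 had an optimal summit in the window (31.9% of all genes) and 5 at the promoter (13.5% of all genes), with 6, 5 and 6 promoters in the top regions of replicates 2, 3 and 4 (11.3%, 16.0% and 12.7% of all genes). The strongest was at Gapdh2 (rank 43, 146 bp from its TSS, ranks 29, 40 and 149 in the replicates), then Eno (rank 188, 252 bp) and Ldh. Gapdh2 and Eno encode a glyceraldehyde-3-phosphate dehydrogenase and enolase. The best rank in the Ldh window, 314, belonged to a region 147 bp from the TSS of Best2, and the promoter of Ldh itself, which encodes lactate dehydrogenase, had rank 427. The only optimal summits in the windows of PyK and Pglym78 lay 137 bp from the TSS of CG7071 and 122 bp from that of Rpn2. They were 4778 and 5040 bp from the TSSs of PyK and Pglym78. Pgi, Pfk, Ald1, Tpi and Gapdh1 had no optimal summit.

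Of 8 fatty acid oxidation genes, which Hnf4 drives, 6 had an optimal summit in the window and 3, Mcad, Acsl and yip2, at the promoter, against 31.9% and 13.5% of all genes. Replicates 2, 3 and 4 had 3, 4 and 2 of the 8 promoters in their top regions, against 11.3%, 16.0% and 12.7% of all genes. Mcad, a medium-chain acyl-CoA dehydrogenase gene, had a region 202 bp from its TSS at rank 250, with ranks 313, 189 and 554 in the replicates. The best rank in this list, 122, was in the window of Mtpalpha but 8092 bp from its TSS and 108 bp from that of lncRNA:CR44149. The other optimal summits of that window were nearest to the TSS of brwl. The only optimal summits in the windows of whd and scu lay 11 bp from the TSS of Pef and 202 bp from that of RhoGAP16F. In Acsl, an acyl-CoA synthetase gene, the strongest of 3 summits had rank 1127 and was intronic. The lipid genes tied to Hr96, mag and Npc1b, had no pooled region in their windows.

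All 5 coregulator genes of nuclear receptors had optimal summits, in windows of 18.2 to 93.4 kb, and 2 of them, gro and tai, at the promoter. Of all genes 31.9% and 13.5% did. The corepressor gene gro had ranks 189 and 1139, both within 115 bp of a TSS. In the coactivator gene tai the strongest of 7 was intronic at rank 347, and in Gug, the Atrophin gene whose product binds Tailless, the strongest of 3 was intronic at rank 539. All 3 summits of Gug and all 3 of Smr were intronic. Genes of these lists were named from knowledge of the receptors, and no list was tested.

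The genes most like the 3 strongest windows were sought by the best rank in the 3 replicate lists, over 9376 genes with a region in each, by the mean absolute difference in log10 of rank. For Hr96 these were Sfmbt (0.022, ranks 843, 727 and 648) and Usp30 (0.037). For Hnf4 they were CG9674 (0.038, ranks 774, 1178 and 1219) and AsnRS (0.042). For the dsf window, whose strongest region lies 22 bp from the Gpdh1 TSS, they were Uros1 (0.039, ranks 2633, 636 and 1385) and CG7220 (0.049). The measure rests on 3 ranks per gene.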

How the data were processed

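Per the deposited notes, the authors called regions on each replicate alignment and on the 3 pooled, each with a control alignment, and kept optimal regions by an irreproducible discovery rate threshold. The authors deposited a signal value and a −log10 q-value per region, and the q-values were used only to describe regions. Aligner, peak caller and read depth were not given in the sources used here, and the control library and the dm3 lists were not analysed here. The optimal list is drawn from the pooled list, so presence there does not imply a strong region in every replicate.

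The 5 dm6 lists were read with Python 3.11.15, numpy 2.4.6, pandas 2.3.3, scipy 1.17.1 and matplotlib 3.10.9. Summits were the deposited start plus summit offset, written 1-based. Genes came from Ensembl release 115 on BDGP 6.54, without transposable elements and pseudogenes, and no region ended beyond its reference arm. Of the listed symbols 47 matched by symbol and 1 by synonym. A promoter is within 1000 bp of a TSS. Then came exon, intron and flank. Regions were shared when summits lay within 200 bp. No test was run, because there was 1 group. Counting and word search were checked on made-up features with known answers.

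The members, the lists and the words were chosen with earlier results of these data known. All 9 genes and their optimal summits are named. Of each further list up to 3 genes with the strongest optimal summit are named. Genes named beyond that, such as knrl and neighbours of a summit, were chosen after their values were seen. Alternatives were other windows, promoter widths, thresholds, sharing distances, the nearest TSS, merged summits and each replicate left out.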

Additional observations from a re-analysis of the deposited data

How the results depend on the processing

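With the upper 50% of regions by signal, the optimal summits in the 9 windows fell from 5 to 3 and the mean number of top regions per replicate from 5.33 to 3.33. Counting only summits whose nearest TSS was that of the listed gene left 2 genes and 2 summits, 1 promoter, 1 summit found among the top regions of all 3 replicates, and 2.33 top regions per replicate. When all regions of each replicate list counted, 4 of the 5 optimal summits had a counterpart in all 3 replicates, against 2 among top regions. The median density over the 9 genes was 0 optimal and 3.54 pooled summits per 10 kb. The lists were not called again without a replicate. With each replicate left out in turn, an optimal region counted only if both others held a top region within 200 bp. That filter left 2 to 3 genes and 2 to 3 summits, where requiring all 3 replicates left 2 summits. The number of summits supported by the remaining replicates equals the number of summits by this definition. The count of promoters stayed within 1.5 times. Windows of 1 kb and 10 kb, promoters of 500 and 2000 bp, sharing within 100 and 500 bp and summits under 200 bp apart counted once left every one of these counts within 1.5 times. For single genes, 58 of 72 counts under an alternative stayed within 1.5 times and 14 moved. The 58 include Hr78, Hr51, svp, tll and kni, which had no optimal summit and stayed at 0 under every alternative. All 14 that moved were counts of Hnf4, ERR, Hr96 and dsf, so the counts of these genes were less stable than the total implies. Read depth is unknown, so its effect on weak regions could not be measured. No paired analysis was possible because there was 1 group and no contrast.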
